A study of Mus musculus with 11 samples.

Results

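The type I interferon receptor, its kinases, the transcription factors it activates and its feedback inhibitor were followed by RNA-seq in mouse embryonic fibroblasts (MEFs), which are connective tissue cells grown from the embryo. The 9 genes were Ifnar1, Ifnar2, Jak1, Tyk2, Stat2, Irf9, Irf7, Irf1 and Socs1, chosen by name from the 53924 named lines of the count table, and all 9 passed the filter on low counts. The libraries came from 4 genotypes, labelled Trex1-/- (3 libraries), Trex1D18N (3 libraries), Trex1p212fs (2 libraries) and WT (3 libraries). The cells were grown from embryos of embryonic day 13.5 and taken at passage 2, without a stated treatment. The labels gave no strain, no zygosity of the D18N and p212fs alleles and no number of embryos, and their growth protocol named both primary and spontaneously immortalized MEFs. Trex1 encodes a DNA exonuclease of the cytosol, D18N is a substitution in the protein and p212fs is by its name a frameshift. The table listed Trex1 at 0 counts for WT as for the mutants, so the targeted gene gave no check of any of the 11 labels.

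Type I interferons bind a receptor of the chains IFNAR1 and IFNAR2, to which the kinases TYK2 and JAK1 are attached. The kinases phosphorylate STAT proteins, and STAT2 with IRF9 forms part of the ISGF3 complex, which binds interferon-stimulated response elements (ISRE) in promoters. IRF7 is a factor that drives interferon alpha genes, IRF1 is a factor best known downstream of interferon gamma, and SOCS1 is an inhibitor of the Janus kinases. Fibroblasts carry the receptor and respond to type I interferon, which makes many of these genes interferon-inducible themselves.

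Library totals were 16059426 to 21748034 counts, and Spearman correlations between libraries of a genotype were 0.960 to 0.994. All 10 fibroblast markers were counted in every library, with levels in CPM (a gene's counts per 1e+06 counts of its library). Their sum was 53245 to 62423 CPM in Trex1-/- and 69258 to 81383 CPM in D18N. It was 25872 to 29926 CPM in p212fs, against 51536 to 57022 CPM in WT. In p212fs over WT 6 of the 10 fell, beside 8.95% of all genes tested. In D18N over WT 3 rose and 2 fell, beside 12.2% and 13.2% of all genes. The part of the fibroblast markers in the differences of p212fs, Jak1 included, was not tested. Summed CPM of 20 macrophage markers was 271 to 414 in Trex1-/-, 78.3 to 157 in D18N and 556 to 741 in p212fs, against 867 to 1164 in WT. Summed CPM of 14 skeletal muscle markers was 825 to 2050 in D18N, against 8.19 to 44.8 in the other 3 genotypes. In such bulk libraries fewer cells of a type and less RNA per cell cannot be told apart. Xist and the Y-linked Ddx3y split the libraries by sex. Trex1-/- replicate 2, D18N replicate 1 and the 3 WT libraries had 408 to 1043 CPM of Xist and 0 CPM of Ddx3y, while the other 6 libraries had 0 to 0.184 CPM of Xist and 53.6 to 95.7 CPM of Ddx3y. WT held no library of the second pattern and p212fs none of the first. The labels do not say whether the libraries of a genotype came from separate cultures, so p-values may in part measure technical spread.

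Promoters of 4 genes are shown because Stat2 and Irf7 varied together across the libraries, Socs1 followed them less closely and Irf1 less still. Irf9, which followed Stat2 and Irf7 more closely than Socs1 did, is not shown. Each sequence is the RefSeq window (build GRCm38.p6) from 250 bases before to 50 bases after the transcription start, 5′ to 3′ on the gene's strand. All 9 genes matched a window. Capitals mark matches to the ISRE letters (GAAANN followed directly by GAAA) or to the gamma-activated site (GAS) letters (TTCNNN followed directly by GAA), each searched on both strands. The Stat2 window is chr10:128270248-128270547 (plus strand), the Irf7 window chr7:141266375-141266674 (minus strand), the Irf1 window chr11:53769764-53770063 (plus strand) and the Socs1 window chr16:10785487-10785786 (minus strand).
Stat2: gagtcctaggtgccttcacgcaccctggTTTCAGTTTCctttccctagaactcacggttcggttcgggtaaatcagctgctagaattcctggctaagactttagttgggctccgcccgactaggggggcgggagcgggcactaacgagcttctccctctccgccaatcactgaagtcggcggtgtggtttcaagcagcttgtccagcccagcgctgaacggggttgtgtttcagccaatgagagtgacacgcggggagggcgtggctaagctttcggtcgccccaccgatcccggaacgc
Irf7: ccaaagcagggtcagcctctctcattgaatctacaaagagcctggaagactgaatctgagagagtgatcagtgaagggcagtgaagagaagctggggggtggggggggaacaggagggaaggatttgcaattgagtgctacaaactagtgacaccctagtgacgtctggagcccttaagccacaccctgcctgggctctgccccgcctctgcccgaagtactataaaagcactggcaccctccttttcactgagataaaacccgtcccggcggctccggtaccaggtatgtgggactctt
Irf1: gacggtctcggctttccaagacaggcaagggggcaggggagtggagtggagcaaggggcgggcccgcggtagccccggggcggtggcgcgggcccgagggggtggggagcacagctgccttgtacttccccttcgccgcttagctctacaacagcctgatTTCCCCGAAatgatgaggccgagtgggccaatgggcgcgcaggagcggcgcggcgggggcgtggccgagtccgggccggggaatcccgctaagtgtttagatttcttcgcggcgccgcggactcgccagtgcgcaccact
Socs1: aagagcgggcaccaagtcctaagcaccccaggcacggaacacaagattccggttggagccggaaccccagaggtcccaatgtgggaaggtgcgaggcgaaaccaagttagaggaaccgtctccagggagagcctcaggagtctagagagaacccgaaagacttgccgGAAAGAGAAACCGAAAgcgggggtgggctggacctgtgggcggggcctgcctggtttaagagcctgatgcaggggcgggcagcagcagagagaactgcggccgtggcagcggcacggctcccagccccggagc
The Stat2 window held 1 ISRE match, on the minus strand at position -222 from the start. The Socs1 window held 2 ISRE matches that overlap, at -83 and -77, shown as 1 run of capitals. The Irf1 window held a GAS match at -90, and the windows of Ifnar1 (TTCACGGAA at -5) and Ifnar2 (TTCCTGGAA at -214) held 1 each. No match to either motif stood in the windows of Irf7, Irf9, Jak1 and Tyk2 or in the second window of Irf1. Of 32851 windows of 300 bases, 3.44% held the ISRE letters and 8.3% the GAS letters. A match is a run of letters, and binding was not measured.

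**Figure D1:**
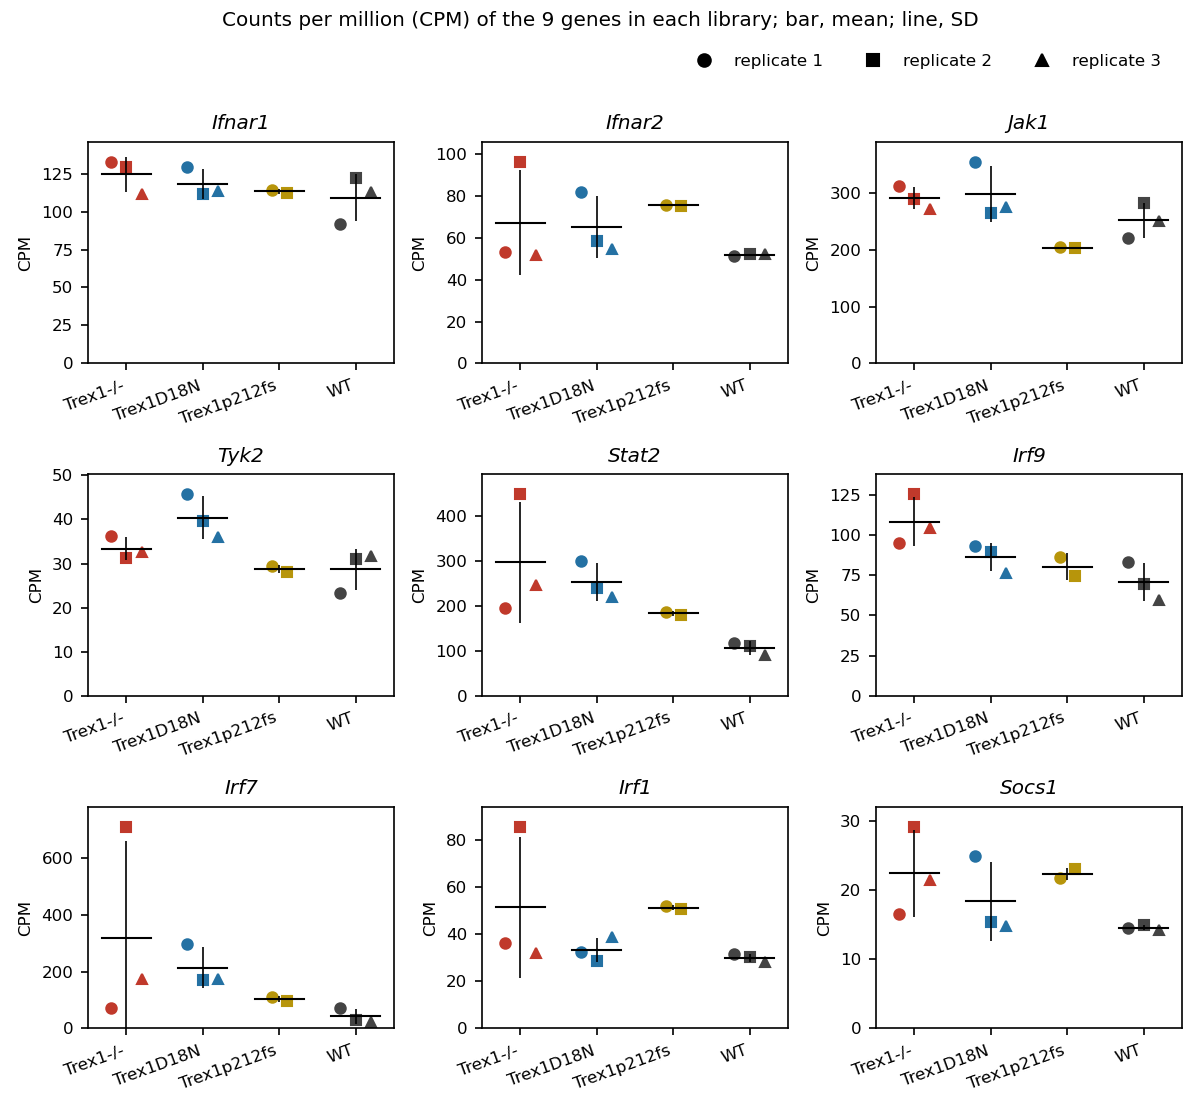
CPM of each gene (y axis, from 0) in each library of the 4 genotypes (x axis), with symbols for replicate numbers, a bar at the mean and a line of 1 SD either side. The square of Trex1-/- (replicate 2) is the highest library for Stat2, Irf9, Irf7, Irf1, Ifnar2 and Socs1, and the 2 p212fs libraries are the lowest for Jak1.

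The largest level differences were those of Irf7 and Stat2, which were higher on average in all 3 mutant genotypes than in WT. Stat2 in D18N cells passed the test, while the size of the Irf7 difference in Trex1-/- cells rested in large part on replicate 2. The adjusted p below is from edgeR's quasi-likelihood test, adjusted by the Benjamini-Hochberg method over all 16990 genes tested, with a threshold of 0.05. Log2 fold changes are from that fit, which scales libraries by TMM factors, and carry an approximate standard error.

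Stat2, the STAT of the type I interferon complex, lies on chromosome 10 (128270559-128292849, plus strand, GRCm38). It had 196, 450 and 246 CPM in Trex1-/-, 302, 240 and 221 CPM in D18N and 187 and 180 CPM in p212fs, against 119, 111 and 90.3 CPM in WT. Every mutant library lay above every WT library. The log2 fold change over WT was 1.26 ± 0.28 in D18N (adjusted p = 0.0107), a rise of 2.39-fold. This call held with each of the 11 libraries left out in turn and in 6 of 6 other settings. In the other mutants it was 1.48 ± 0.28 in Trex1-/- (adjusted p = 0.0922) and 0.72 ± 0.30 in p212fs (adjusted p = 0.121), neither past the threshold. Without Trex1-/- replicate 2 the values were 1.02 (adjusted p = 0.053) for Trex1-/- and 0.73 (adjusted p = 0.0144) for p212fs. For Trex1-/-, DESeq2 gave an adjusted p of 5.73e-05, and a fit of Trex1-/- and WT libraries alone gave 0.327.

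Irf9, the DNA-binding partner of STAT2, varied over a much smaller range. It had 95.1, 125 and 104 CPM in Trex1-/-, 93.1, 89.1 and 76.5 CPM in D18N and 86.2 and 74.4 CPM in p212fs, against 83.3, 69.7 and 59.3 CPM in WT. The Trex1-/- libraries stood above WT without overlap, and the D18N and p212fs libraries overlapped WT. Its log2 fold change over WT was 0.60 ± 0.16 in Trex1-/- (adjusted p = 0.127), 0.29 ± 0.16 in D18N (adjusted p = 0.208) and 0.12 ± 0.18 in p212fs (adjusted p = 0.686). DESeq2 placed the Trex1-/- difference past the threshold (adjusted p = 0.0295). In the fit of Trex1-/- and WT libraries alone that difference did not pass (adjusted p = 0.327). Irf9 shares 123 exonic bases (2.28%) with Rnf31 on the same strand, so reads there cannot be assigned between them. The ratio of Stat2 to Irf9 counts was 2.07 to 3.59 in Trex1-/-, 2.69 to 3.24 in D18N and 2.17 to 2.43 in p212fs, against 1.42 to 1.60 in WT.

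Irf7, which drives interferon alpha genes, lies on chromosome 7 (141262706-141266481, minus strand, GRCm38). It had 70.4, 709 and 173 CPM in Trex1-/-, 296, 170 and 173 CPM in D18N and 112 and 95.9 CPM in p212fs, against 72.4, 31.2 and 23.6 CPM in WT. Its highest library, Trex1-/- replicate 2, held 30.0 times the CPM of its lowest, WT replicate 3, the widest range of the 9 genes. Trex1-/- replicate 1 lay below WT replicate 1, while all D18N and p212fs libraries lay above all WT libraries. Relative to WT, the log2 fold change was 2.90 ± 0.79 in Trex1-/- (adjusted p = 0.131), 2.32 ± 0.77 in D18N (adjusted p = 0.0533) and 1.22 ± 0.82 in p212fs (adjusted p = 0.329). None passed the threshold. Without Trex1-/- replicate 2 the log2 fold change in Trex1-/- was 1.49 (adjusted p = 0.178), and the D18N difference of 2.30 then passed (adjusted p = 0.00589). DESeq2 gave adjusted p-values of 0.0186 for Trex1-/- and 0.0227 for D18N. The fit of Trex1-/- and WT libraries alone gave 0.327 for Trex1-/-. The D18N difference passed in 3 of 6 settings other than omissions of a library. Its adjusted p was 0.174 with no filter on low counts and 0.154 without WT replicate 3. Irf7 is also abundant in plasmacytoid dendritic cells. Of 8 dendritic and lymphoid markers, Bst2, itself interferon-inducible, had 121 to 1018 CPM, and the other 7 had at most 0.454 CPM in any library and did not pass the filter. Their part in the Irf7 differences was not tested.

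Irf1, a factor downstream of interferon gamma, was high in Trex1-/- replicate 2 and in both p212fs libraries. It had 36.3, 85.8 and 32.2 CPM in Trex1-/-, 32.3, 28.6 and 38.8 CPM in D18N and 52.0 and 50.8 CPM in p212fs, against 31.8, 30.2 and 28.3 CPM in WT. Of the D18N libraries, replicate 2 lay within the WT range and the others above it, whereas for Stat2 and Irf7 all lay above WT. The log2 fold change over WT was 0.77 ± 0.32 in Trex1-/- (adjusted p = 0.195), 0.15 ± 0.32 in D18N (adjusted p = 0.755) and 0.71 ± 0.35 in p212fs (adjusted p = 0.189). Without Trex1-/- replicate 2 it was 0.16 in Trex1-/- (adjusted p = 0.543) and 0.71 in p212fs, where it then passed (adjusted p = 0.00766). A fit of p212fs and WT libraries alone also placed it past the threshold (adjusted p = 0.0126), and DESeq2 did not (adjusted p = 0.153).

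Socs1, the inhibitor of the Janus kinases, had 16.6, 29.2 and 21.5 CPM in Trex1-/-, 25.0, 15.4 and 14.9 CPM in D18N and 21.8 and 23.0 CPM in p212fs, against 14.6, 15.0 and 14.2 CPM in WT. All Trex1-/- and p212fs libraries were above WT, and in D18N the high value was replicate 1 alone. Over WT, its log2 fold change was 0.62 ± 0.24 in Trex1-/- (adjusted p = 0.171), 0.34 ± 0.24 in D18N (adjusted p = 0.299) and 0.56 ± 0.26 in p212fs (adjusted p = 0.159). In the fit of p212fs and WT libraries alone the p212fs difference passed (adjusted p = 0.0341), and with DESeq2 it did not (adjusted p = 0.154).

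Of the receptor chains, Ifnar1 differed little and Ifnar2 was high in single libraries and in p212fs. Ifnar1 had 133, 129 and 112 CPM in Trex1-/-, 130, 111 and 113 CPM in D18N and 114 and 112 CPM in p212fs, against 92.0, 122 and 113 CPM in WT. Its groups overlapped throughout, and its log2 fold changes over WT were 0.19 ± 0.12 in Trex1-/-, 0.13 ± 0.12 in D18N and 0.00 ± 0.13 in p212fs (adjusted p = 0.357, 0.434 and 0.999). Ifnar2 had 53.4, 96.4 and 52.0 CPM in Trex1-/-, 82.1, 58.4 and 54.7 CPM in D18N and 75.7 and 75.3 CPM in p212fs, against 51.5, 52.2 and 52.1 CPM in WT. Its log2 fold change over WT was 0.37 ± 0.23 in Trex1-/- (adjusted p = 0.355) and -0.01 without replicate 2, the one Trex1-/- library clearly above WT. It was 0.33 ± 0.23 in D18N (adjusted p = 0.307) and 0.48 ± 0.26 in p212fs (adjusted p = 0.22). The p212fs difference passed in the fit with WT alone (adjusted p = 0.0308), and with DESeq2 it did not (adjusted p = 0.227). Of the exonic bases of Ifnar2, 9.46% are shared with Gm21970 on the same strand, so reads there cannot be assigned between them.

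The kinases followed another order, with the highest means of both in D18N. Tyk2, the kinase attached to IFNAR1, had 36.2, 31.3 and 32.5 CPM in Trex1-/-, 45.7, 39.5 and 36.0 CPM in D18N and 29.4 and 28.2 CPM in p212fs, against 23.3, 30.9 and 31.7 CPM in WT. It rose in D18N by a log2 fold change of 0.51 ± 0.13 over WT (adjusted p = 0.0194), with no overlap between the libraries. The adjusted p was 0.0693 without D18N replicate 1, 0.0619 without D18N replicate 2 and 0.0569 without WT replicate 1. Over WT, Tyk2 had a log2 fold change of 0.21 ± 0.13 in Trex1-/- (adjusted p = 0.352) and -0.05 ± 0.15 in p212fs (adjusted p = 0.84). The antisense gene 1700084C06Rik covers 8.07% of the exonic bases of Tyk2, and no strand setting was stated, so reads of both cannot be told apart there.

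Jak1, the kinase attached to IFNAR2, had 313, 289 and 273 CPM in Trex1-/-, 355, 266 and 275 CPM in D18N and 204 and 203 CPM in p212fs, against 221, 283 and 251 CPM in WT. Both p212fs libraries lay below all 9 others. Its differences from WT (log2) were 0.20 ± 0.13 in Trex1-/- (adjusted p = 0.361), 0.26 ± 0.13 in D18N (adjusted p = 0.156) and -0.36 ± 0.15 in p212fs (adjusted p = 0.105).

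**Figure D2:**
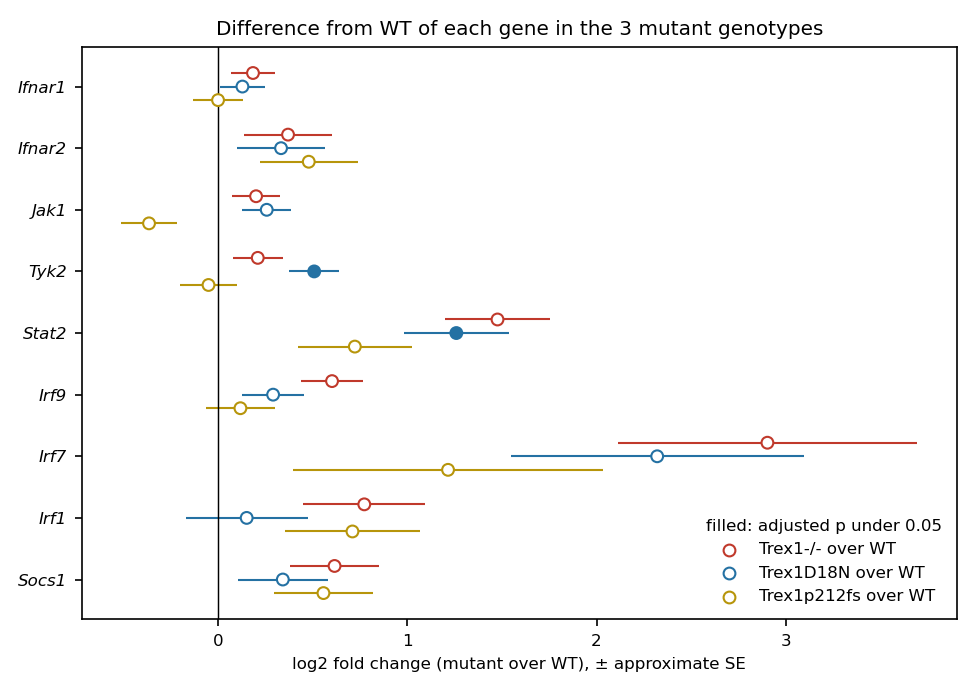
Log2 fold change over WT (x axis) of each gene (y axis) in the 3 mutant genotypes, with approximate standard errors; filled points passed an adjusted p of 0.05. Stat2 and Tyk2 in D18N are the filled points, and Irf7 has the largest values and the widest errors.

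Counted together, 0 of the 9 genes passed in Trex1-/- over WT, where 0% of all genes tested passed. At an unadjusted p under 0.05 there were 5 (Stat2, Irf9, Irf7, Irf1 and Socs1), where 22.7% of all genes had one, and DESeq2 called 3 (Stat2, Irf7 and Irf9), beside 5.77% of the genes it tested. In D18N over WT 2 passed, both higher, beside 25.3% of all genes (12.2% higher). In p212fs over WT 0 passed, beside 17.1% of all genes, with 2 at an unadjusted p under 0.05 (Stat2 and Jak1; 33.2% of all genes). The median log2 fold change of the 9 genes was 0.60 in Trex1-/-, 0.33 in D18N and 0.48 in p212fs, against 0.01, 0.04 and -0.02 over all genes tested. The 3 comparisons share their WT libraries. Libraries did not overlap, with the mutant higher, for 4 genes in Trex1-/- (10% of all genes), 4 in D18N (22.1%) and 5 in p212fs (30.8%). With the mutant lower, 1 did not overlap in p212fs, Jak1 (23.4%).

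Sex could not be separated from genotype for p212fs, and a sex term moved several calls. With a term for the Xist pattern, 4 genes passed in Trex1-/- over WT (2.24% of all genes), at log2 fold changes of 1.88 for Stat2, 3.58 for Irf7, 0.79 for Ifnar2 and 1.03 for Socs1 (adjusted p = 0.00196, 0.0144, 0.0139 and 0.0108). In D18N 5 passed (14% of all genes), with Irf7 at 3.53, Ifnar2 at 0.80 and Socs1 at 0.76 (adjusted p = 0.00847, 0.00534 and 0.0162) beside Stat2 and Tyk2. In p212fs 5 passed (7.83% of all genes), with Stat2 at 1.45, Irf1 at 1.42, Irf7 at 2.99, Ifnar2 at 1.20 and Socs1 at 1.24 (adjusted p = 0.0101, 0.0459, 0.0442, 0.00386 and 0.00738). That term was set by Trex1-/- and D18N, where replicate 2 and replicate 1 were the single libraries with Xist. Trex1-/- replicate 2 was the highest of all libraries for 6 of the 9 genes, and D18N replicate 1 the highest of its genotype for 8 of 9. In p212fs, replicate 1, which has the Ddx3y pattern, was likewise the highest of its genotype for 8 of 9. D18N replicate 1 also held the most skeletal muscle marker RNA, 2050 CPM, against 825 and 851 CPM in replicates 2 and 3. The part of these markers in the D18N differences was not tested. With 1 Xist library in each of Trex1-/- and D18N, its sex and other properties of that library cannot be told apart.

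**Figure D3:**
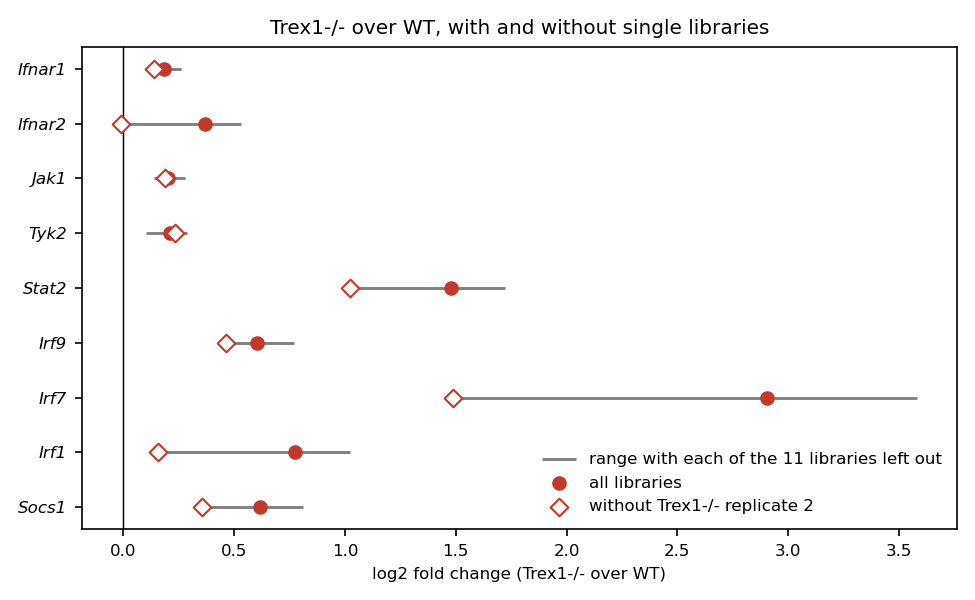
Log2 fold change of Trex1-/- over WT (x axis) for each gene (y axis) with all libraries (filled), without Trex1-/- replicate 2 (diamonds) and over all 11 single omissions (grey lines). Without replicate 2, Irf7 is at 1.49 in place of 2.90 and Irf1 at 0.16 in place of 0.77, while Jak1, Tyk2 and Ifnar1 move little.

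In the edgeR model of genotype over all 11 libraries, the calls between the mutants were of the kinases. In D18N over Trex1-/- 0 of the 9 genes passed (6.8% of all genes did), with 1 at an unadjusted p under 0.05 (23.7% of all genes), Tyk2 (0.30 ± 0.13, adjusted p = 0.198). The Irf7 log2 fold change there was -0.58 ± 0.74, and 0.81 without Trex1-/- replicate 2. In p212fs over Trex1-/- 1 gene passed (32.5% of all genes, 17.1% lower), Jak1, which fell by 0.57 on the log2 scale (SE 0.15, adjusted p = 0.0139). In p212fs over D18N 2 genes passed (38.7% of all genes, 20.1% lower). Jak1 fell by 0.62 (SE 0.15, adjusted p = 0.00738) and Tyk2 fell by 0.56 (SE 0.15, adjusted p = 0.0133). With either p212fs library left out, the adjusted p of these 3 differences was 0.0717 to 0.117. DESeq2 also called Stat2 (-0.77) and Irf9 (-0.50) in p212fs over Trex1-/- (adjusted p = 0.0423 and 0.0471). A sex term in edgeR added Ifnar2 in p212fs over Trex1-/- (0.42, adjusted p = 0.0378). It also added Ifnar2 (0.41) and Socs1 (0.48) in p212fs over D18N (adjusted p = 0.0332 and 0.0389). A fit of p212fs and D18N libraries alone also called Stat2 (-0.54), Irf1 (0.55) and Irf7 (-1.11) between them (adjusted p = 0.0143, 0.0123 and 0.0154). Without Trex1-/- replicate 2, Irf1 (0.56) and Ifnar2 (0.49) passed in p212fs over Trex1-/- (adjusted p = 0.0254 and 0.0468), and Stat2 (-0.51) and Irf1 (0.58) in p212fs over D18N (adjusted p = 0.037 and 0.00941). Without Trex1-/- replicate 1, Stat2, Irf7 and Irf9 passed in p212fs over Trex1-/-, at -0.995, -2.17 and -0.59 (adjusted p = 0.0172, 0.0357 and 0.036).

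Levels of different genes can be set side by side only roughly, as CPM per kilobase of exons. The exonic length joins the exons of all annotated transcripts, and for Irf7 its 3776 bases span the whole gene, introns included. Such a length may exceed that of the transcripts in the cells, by an amount that differs between genes and was not measured. The orders below hold for these lengths only. In WT the order of mean levels was Jak1 at 34.9, Ifnar1 at 18.35, Stat2 at 18.01, Ifnar2 at 15.6, Irf9 at 13.1, Irf7 at 11.2, Irf1 at 7.57, Socs1 at 5.02 and Tyk2 at 4.18 CPM per kilobase. The WT libraries of neighbours overlapped for Ifnar1 with Stat2, Stat2 with Ifnar2, Irf9 with Irf7 and Irf7 with Irf1. In Trex1-/- and D18N, Irf7 led at a mean of 84.1 and 56.5 CPM per kilobase, ahead of Stat2 at 50.2 and 42.9 and Jak1 at 40.3 and 41.3, and the libraries of these neighbours overlapped. In p212fs Stat2 led at 31.0, ahead of Jak1 at 28.2 and Irf7 at 27.5 CPM per kilobase.

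Across the 11 libraries Stat2 and Irf7 had the highest Pearson's r of log2 CPM of any pair among the 9 genes, 0.97, and 0.95 without Trex1-/- replicate 2. Their Spearman's rho was 0.91, as it was for Ifnar1 and Jak1, whose r was 0.74. For Irf1 and Irf7 r was 0.62, and 0.24 without that library. Irf9 had an r of 0.86 with Stat2 and 0.85 with Irf7, and 0.78 and 0.755 without that library. Socs1 had an r of 0.77 with Stat2 and with Irf7, and 0.63 with either without that library. For Jak1 and Tyk2 r was 0.79. The libraries share genotypes, so these values only describe likeness. Of 13035 genes with a mean of at least 1 CPM, Nlrc5 was the most like Stat2 (r = 0.99), followed by Ifi44, H2-Q5 and Trim30a. Zbp1 was the most like Irf7 (r = 0.99), followed by H2-K1, H2-Q5 and Lgals3bp. Xaf1 was the most like Irf9 (r = 0.94), followed by Tor3a, Ddx58 and Oas1g. Irf1 was closest to Vma21 (r = 0.95), Nfe2l2, Kansl2 and Tapbp, though Spearman's rho with them was 0.83, 0.65, 0.77 and 0.69. Socs1 was closest to Cxcl5 (r = 0.95), Repin1, Mov10 and Perm1.

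**Figure D4:**
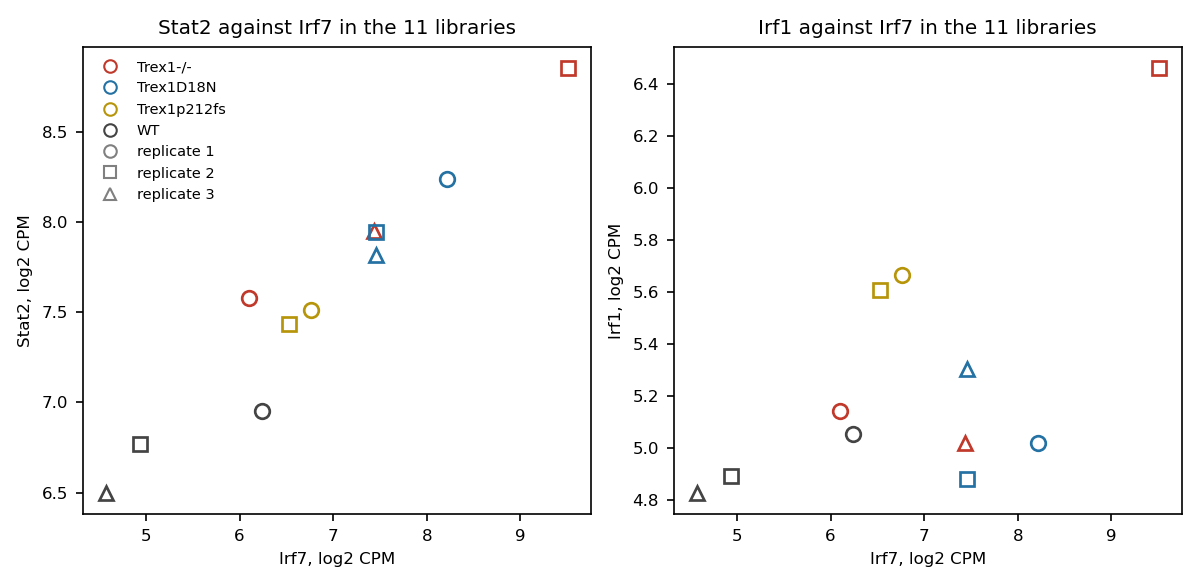
Log2 CPM of Stat2 (left panel, y axis) and Irf1 (right panel, y axis) against log2 CPM of Irf7 (x axes) in the 11 libraries, coloured by genotype with symbols for replicate numbers. Stat2 climbs with Irf7 over the whole range (r = 0.97), while Irf1 is high in Trex1-/- replicate 2 and the p212fs libraries (r = 0.62).

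The interferon genes themselves were at or near 0. None of the 21 listed passed the filter, and 16 of them were at 0 counts in every library. Their summed level was 0 to 0.921 CPM, with the highest in Trex1-/- replicate 2. Ifnb1, the interferon beta gene, had 14 counts in all, of which 9 were in that library. The 33 interferon-stimulated targets in the table summed to 2292, 10136 and 3477 CPM in Trex1-/-, 2723 to 3350 CPM in D18N and 2873 to 3040 CPM in p212fs, against 957 to 1899 CPM in WT. Of the 32 tested, 0 passed in Trex1-/-, where 0% of all genes passed. In D18N 6 rose and in p212fs 1 rose, where 12.2% and 8.13% of all genes rose. Ifit1, an interferon-induced RNA-binding protein, was the one in p212fs (2.59 ± 0.62, adjusted p = 0.0214). The median log2 fold change of the 32 was 2.17 in Trex1-/-, 1.24 in D18N and 0.84 in p212fs. Over all genes tested it was 0.01, 0.04 and -0.02. Libraries did not overlap, with the mutant higher, for 24, 27 and 22 of the 32 (10%, 22.1% and 30.8% of all genes).

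Other genes of the pathway moved singly. Of all genes tested, 12.2% rose and 13.2% fell in D18N over WT, and 8.13% rose and 8.95% fell in p212fs over WT. Of 4 other receptor chains, Ifngr2, a chain of the interferon gamma receptor, rose in p212fs to 137 ± 1.49 CPM (n = 2), against 76.5 ± 3.16 CPM in WT (n = 3), at a log2 fold change of 0.78 ± 0.13 (adjusted p = 0.00364). It was 77.4 ± 9.15 CPM in Trex1-/- and 64.4 ± 5.26 CPM in D18N, and neither passed. Of 2 other Janus kinases, Jak2 fell in p212fs to 50.2 ± 6.75 CPM, against 104 ± 23.0 CPM in WT (-1.11 ± 0.34, adjusted p = 0.0481). In D18N Jak2 was at 190 ± 14.4 CPM (0.88 ± 0.29, adjusted p = 0.0504), just outside the threshold. Of 4 other STAT genes tested, Stat5a (0.45 ± 0.11, adjusted p = 0.0158) and Stat3 (0.39 ± 0.11, adjusted p = 0.0314) rose in D18N. In p212fs Stat5a rose (0.47 ± 0.12, adjusted p = 0.0251) and Stat5b fell (-0.69 ± 0.17, adjusted p = 0.0193).

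Of 8 other IRF-family genes tested, 3 fell in D18N and 2 in p212fs, where 13.2% and 8.95% of all genes fell. Irf8, a factor of myeloid cells, fell in D18N to 0.935 ± 0.348 CPM, against 4.51 ± 0.910 CPM in WT (adjusted p = 0.00172), and in p212fs to 2.11 ± 0.297 CPM (adjusted p = 0.0478). Irf3, the factor downstream of the cytosolic DNA sensor pathway, fell in D18N by 0.44 on the log2 scale (SE 0.14, adjusted p = 0.0368). Of 17 other negative regulators, 1 rose and 2 fell in D18N and 3 fell in p212fs, beside the same shares of all genes. Socs3, a related inhibitor, rose in D18N to 125 ± 12.1 CPM, against 72.3 ± 3.79 CPM in WT (adjusted p = 0.0281). Socs2 fell in p212fs to 6.42 ± 1.55 CPM, against 30.4 ± 6.01 CPM in WT (adjusted p = 0.00777). Ptpn6, a phosphatase of blood cells, fell to 1.16 ± 0.421 CPM in D18N (adjusted p = 0.000402) and 4.76 ± 0.153 CPM in p212fs (adjusted p = 0.0359), against 11.7 ± 3.99 CPM in WT. The macrophage marker sums given above were also lower than WT in D18N and p212fs, and their part in the Irf8 and Ptpn6 differences was not tested. In Trex1-/- over WT 0 members of these lists passed in edgeR's test, where 0% of all genes passed.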

How the data were processed

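RNA-seq was done on 11 libraries, with RNeasy purification and a SMARTer kit for mRNA, per the labels' protocols. The authors deposited raw read counts per gene, without normalization. The submitters' processing notes name the build GRCm39 with fastp, HISAT2 and featureCounts; their settings, strand mode and annotation are not given in the sources used here. Of 55578 lines, 1654 without a gene name (0.0804% to 0.129% of reads) were left out of totals and tests. No sample column was unused.

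CPM is counts over the named total, and errors of CPM are SD between libraries. Genes were tested with edgeR 4.0.16 (R 4.3.3; quasi-likelihood, robust, TMM, filterByExpr with a minimum count of 10) in one model of genotype over all 11 libraries. The common biological coefficient of variation was 22.5%. P-values were adjusted over 16990 genes, and the standard error is the size of the log2 fold change divided by the root of the F statistic. Alternatives were DESeq2 1.42.0, DESeq2 size factors, no filter, fits of 2 genotypes, a sex term, a replicate block and each library left out. GENCODE M21 (GRCm38, not the submitters' build) gave exonic lengths, coordinates and overlaps. Likeness used log2 CPM with a prior count of 1.

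The text names the 9 genes, Trex1, Xist and Ddx3y, the 4 genes most like each of 5 members, and members of each list by smallest p past the threshold, or by level where none passed, though not all of them. Bst2 was singled out after its values were seen. Members, lists and tests were chosen with earlier results of these data known.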

Additional observations from a re-analysis of the deposited data

How the results depend on the processing

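Of the 54 single-gene values under 17 alternatives, 839 kept their direction and side of the threshold, 46 kept their direction and passed only in the alternative, 9 lost a call and 24 turned direction. None of those 24 was past the threshold with all libraries, and 1 passed once turned, Irf1 in p212fs over Trex1-/- without Trex1-/- replicate 2. The number of genes called in Trex1-/- over WT was 0, and 261 with no filter, 380 with a sex term and 846 with DESeq2. In D18N over WT it was 4303, and 2379 with a sex term. In p212fs over WT it was 2902, and 1331 with a sex term. In D18N over Trex1-/- it was 1155, and 417 with only those genotypes in the fit and 2035 with DESeq2. With single libraries left out the counts ran from 0 to 2269 (highest without WT replicate 2), 1662 to 5350, 494 to 3947 and 406 to 1916 in these comparisons, from 1621 to 6253 in p212fs over Trex1-/- (main count 5523) and from 2674 to 7187 in p212fs over D18N (6571). The causes were not tested.

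The Ifnar1 log2 fold change in p212fs over WT was -0.0054 with DESeq2 size factors, -0.0031 with no filter, -0.00072 with only those genotypes, -0.026 with the replicate block and -0.0054 with DESeq2. With a sex term Tyk2 was 0.038 in p212fs over WT, Ifnar2 0.011 in D18N over Trex1-/-, and Irf1 0.29 and Socs1 0.21 in p212fs over Trex1-/-. Over single omissions the turned log2 fold changes ran from -0.0082 to 0.53 (Ifnar2, Trex1-/- over WT), -0.081 to 0.076 (Ifnar1) and -0.15 to 0.033 (Tyk2) in p212fs over WT. In D18N over Trex1-/- they ran from -0.49 to 0.21 (Stat2), -1.09 to 0.81 (Irf7), -0.24 to 0.32 (Ifnar2) and -0.086 to 0.12 (Jak1). In p212fs over Trex1-/- they ran from -0.31 to 0.56 (Irf1), -0.050 to 0.49 (Ifnar2) and -0.25 to 0.20 (Socs1). Where p212fs kept 1 library, that library is assumed to vary like the other groups.

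The labels state no pairing by replicate number. Deviations of log2 CPM from genotype means had correlations of -0.192 to 0.129 in 15 same-numbered pairs between genotypes, 1 of them over 0.1. In 30 pairs with other numbers they were -0.1915 to 0.2185, 2 of them over 0.1. Deviations from a mean of 2 or 3 libraries depend on each other, so these values cannot decide whether samples were paired. With the replicate block the counts were 0, 3801, 1966, 881, 4701 and 5930 for Trex1-/-, D18N and p212fs over WT, D18N and p212fs over Trex1-/-, and p212fs over D18N. The block changed 1 call of the 9 genes, Irf9 in p212fs over Trex1-/- (-0.57, adjusted p = 0.0495, against 0.0652 without it).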

Other observations

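The ratio of Ifnar2 to Ifnar1 counts was 0.402, 0.747 and 0.466 in Trex1-/-, 0.634, 0.524 and 0.483 in D18N and 0.661 and 0.671 in p212fs, against 0.560, 0.427 and 0.462 in WT. The ratio of Tyk2 to Jak1 counts was 0.109 to 0.119 in Trex1-/-, 0.129 to 0.149 in D18N and 0.139 to 0.144 in p212fs, against 0.106 to 0.126 in WT. The D18N and p212fs libraries thus lay above all WT libraries in that ratio, with Tyk2 high in D18N and Jak1 low in p212fs. These ratios are within a library and need no scaling between libraries, and they were not tested.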
